A study of Mus musculus with 8 samples.

Results

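The genes described here release, build, break down or sense prostaglandins, and there are 10 of them in a table of 24421 genes: the phospholipase gene Pla2g4a, the cyclooxygenase genes Ptgs1 and Ptgs2, the synthase genes Ptges and Ptgds, the degrading enzyme gene Hpgd, and the receptor genes Ptger1, Ptger2, Ptger3 and Ptger4. They were picked by symbol, and all 10 passed the filter on low values, which asked for a mean of at least 1 normalized read in at least 1 group. RNA was sequenced from back skin cells of 4 C57BL/6J mice that carried ROSA mTmG and Cre (Tyr:CreERT2). ROSA mTmG labels cell membranes with tdTomato until Cre acts and with EGFP from then on, and Tyr:CreERT2 is active in cells that use the tyrosinase promoter once tamoxifen has been given, so a melanocyte in which Cre did not act keeps tdTomato. Every mouse received tamoxifen on 10 days from postnatal day 21, was shaved and depilated at day 50, and was collected at day 54, with the skin dissociated and sorted. The 4 groups were EGFP+ cells of UV mice (150 mJ/cm2 UVB for 3 days), EGFP+ cells of no UV mice (mock treated under normal light), tdTomato+ cells of UV mice and tdTomato+ cells of no UV mice. Each group had 2 libraries, 1 per mouse, and both populations of a mouse gave 1 library each.

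Prostaglandins are short-lived lipid signals. Pla2g4a encodes the cytosolic phospholipase A2 that frees arachidonic acid from membranes, the cyclooxygenases turn it into prostaglandin H2, and terminal synthases turn that into prostaglandin E2 (Ptges) or prostaglandin D2 (Ptgds). Hpgd encodes the dehydrogenase that inactivates prostaglandin E2, and the Ptger genes encode its receptors EP1 to EP4, of which EP2 and EP4 raise cAMP, EP3 mostly lowers it and EP1 acts through calcium. In skin, prostaglandin E2 is known as a signal from keratinocytes after ultraviolet light, as an inflammatory mediator and as a factor that acts on cultured melanocytes.

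The promoters of the cyclooxygenase and synthase genes are shown because 3 of these genes were low in EGFP+ cells while Ptgds was among their most abundant transcripts. Each line gives the 250 bases before the start of transcription in RefSeq (GRCm38.p6), read 5′ to 3′ on the gene's strand. The Ptges and Ptgds windows lie inside the spans that GENCODE gives for these genes, so the 2 annotations differ on their start. The Ptgs1 window is chr2:36230176-36230425 (plus strand), the Ptgs2 window is chr1:150099781-150100030 (plus strand), the Ptges window is chr2:30903298-30903547 (minus strand) and the Ptgds window is chr2:25469750-25469999 (minus strand). Capitals mark matches, on either strand, to any of 7 motifs: the E-boxes CACGTG and CATGTG, the cAMP response half-site TGACG, the TATA box TATAAA, the GC box GGGCGG, the AP-1 site TGANTCA and the NF-kappaB consensus.
Ptgs1: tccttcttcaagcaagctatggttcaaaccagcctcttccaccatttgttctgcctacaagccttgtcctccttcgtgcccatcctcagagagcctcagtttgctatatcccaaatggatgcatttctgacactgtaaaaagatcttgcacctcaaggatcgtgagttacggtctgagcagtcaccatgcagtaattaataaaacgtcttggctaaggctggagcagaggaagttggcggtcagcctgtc
Ptgs2: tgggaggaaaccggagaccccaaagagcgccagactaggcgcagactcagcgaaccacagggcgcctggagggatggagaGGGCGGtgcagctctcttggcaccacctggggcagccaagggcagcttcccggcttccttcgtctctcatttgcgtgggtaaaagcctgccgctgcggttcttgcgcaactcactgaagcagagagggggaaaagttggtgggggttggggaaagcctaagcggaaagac
Ptges: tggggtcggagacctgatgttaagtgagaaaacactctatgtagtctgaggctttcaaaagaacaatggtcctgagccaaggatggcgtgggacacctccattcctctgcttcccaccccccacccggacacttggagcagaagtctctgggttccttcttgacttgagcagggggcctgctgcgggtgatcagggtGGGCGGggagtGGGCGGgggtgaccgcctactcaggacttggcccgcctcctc
Ptgds: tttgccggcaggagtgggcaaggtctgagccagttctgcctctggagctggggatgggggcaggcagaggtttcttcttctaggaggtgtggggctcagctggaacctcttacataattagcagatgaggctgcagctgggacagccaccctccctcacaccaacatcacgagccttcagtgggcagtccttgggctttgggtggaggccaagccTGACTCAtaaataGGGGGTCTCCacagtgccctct
The Ptgs2 window held 1 GC box and the Ptges window 2, and 32.7% of 32851 RefSeq promoters hold at least 1. The Ptgds window held 1 AP-1 match and 1 NF-kappaB match, found in 6.75% and 5.0% of these promoters, and the Ptgs1 window held no match to the 7 motifs. GC content was 48.0% for Ptgs1, 61.6% for Ptgs2, 59.6% for Ptges and 58.4% for Ptgds, against a mean of 53.2% over all these promoters. A match is a description of letters and was not tested as a binding site.

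Libraries held 11186363 to 16711981 reads assigned to genes. The summed level of 6 melanocyte markers (Tyr, Dct, Pmel, Mlana, Sox10, Mitf) was 382192 and 435548 normalized reads in UV EGFP+ libraries and 415908 and 489809 in no UV EGFP+ libraries, against 16818 and 30883 in UV tdTomato+ libraries and 4620 and 2334 in no UV tdTomato+ libraries, with none of the 6 at 0 in any library. The tdTomato+ libraries carried keratinocyte, hair follicle, fibroblast and immune markers, so their values average many cell types, and in such bulk samples fewer cells of a type and less RNA per cell cannot be told apart. No UV replicate 1 (mouse 1) stood apart in sex: its libraries had 477 and 1103 reads of Xist and at most 9 of the Y-linked genes, while the other 6 libraries had at most 4 and at least 2253. Results that change without its libraries are given below.

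Over all 4 mice, 8 of the 10 genes were lower in EGFP+ than in tdTomato+ cells and 2, Ptgds and Ptger1, were higher, at an adjusted p under 0.05. Of all 18070 genes tested, 28.9% passed in this comparison, 9.66% higher and 19.2% lower. The split of all calls moved with the scaling: 1746 genes were higher and 3471 lower here, 2857 and 2672 under quantile normalization, and 2655 and 2895 after rescaling without the 20 most abundant genes. The median log2 difference was -6.04 over the 10 genes and -0.33 over all genes tested. With Ptger2 and Ptger3, which had 0 reads in EGFP+ cells, set at the bound that 3 reads over the group allow, the 10 genes' median was -6.17. In UV mice alone 8 of 10 passed (1 higher, 7 lower), against 17.9% of all genes (5.03% higher, 12.9% lower), and in no UV mice alone 10 of 10 passed (2 higher, 8 lower), against 19.2% (6.67% higher, 12.5% lower). Libraries did not overlap for 9 of the 10 over all mice, with EGFP+ above for Ptgds and below for 8, against 9.8% and 18.0% of all genes. EGFP+ lay below for the same 8 in UV mice, where 33.7% of all genes did, and in no UV mice, where 34.2% did. These comparisons share libraries. Without no UV EGFP+ replicate 2, or without both libraries of mouse 1, 6 of 10 passed in no UV mice. All 10 directions over all mice held under quantile normalization, which moved the median of all genes by 0.45, and under rescaling without the 20 most abundant genes, which moved it by 0.21. The plot of all members by library shows Ptgds alone with every EGFP+ library far above every tdTomato+ library.

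**Figure D1:**
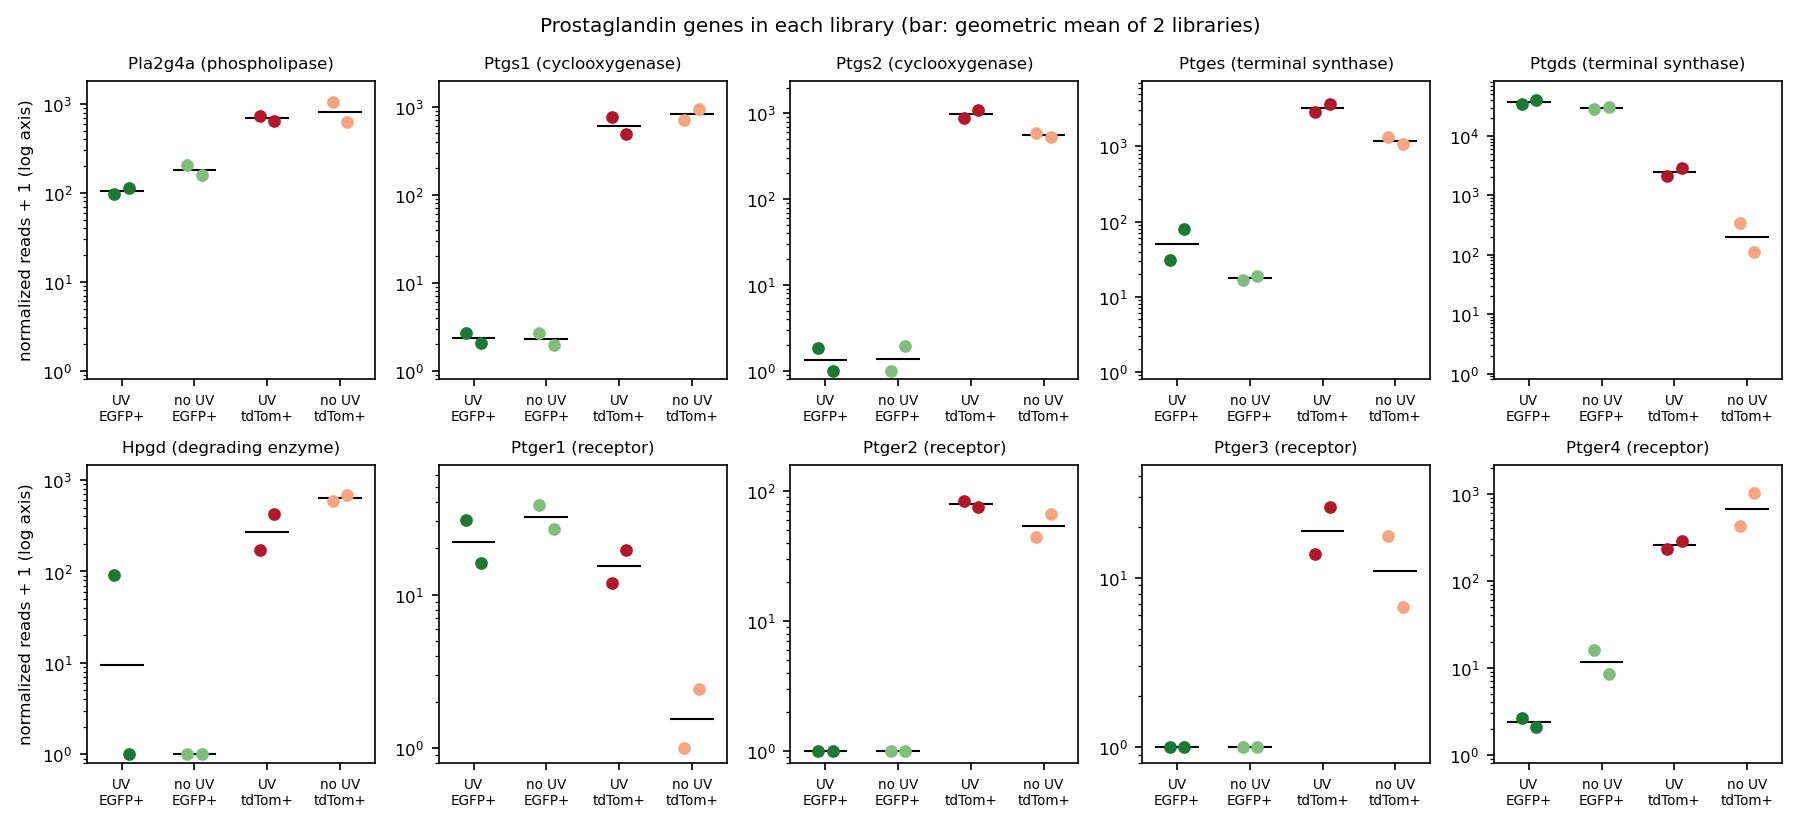
Normalized reads plus 1 (log axis) of the 10 genes in each of 8 libraries. Points are libraries, grouped left to right as UV EGFP+, no UV EGFP+, UV tdTomato+ and no UV tdTomato+, and bars are geometric means of 2 libraries. Ptgds is the gene whose EGFP+ libraries all lie above its tdTomato+ libraries, and 8 genes show the opposite order.

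Pla2g4a (chr1:149829618-149961290, minus strand, 20 merged exons) is the arachidonate-releasing enzyme at the head of the pathway. Its level was 94.8 and 111.0 normalized reads in UV EGFP+ libraries and 202.9 and 155.9 in no UV EGFP+ libraries, against 729.4 and 649.1 in UV tdTomato+ libraries and 1055 and 625.2 in no UV tdTomato+ libraries. Every EGFP+ library lay below every tdTomato+ library, and among the 8 lower genes it had the smallest difference, log2 -2.46 ± 0.26 (moderated SE, adjusted p = 0.000223) over all mice. EGFP+ cells held 14.9% of the tdTomato+ level in UV mice and 21.4% in no UV mice. By the same measure the summed markers of other cell types in EGFP+ cells differed widely: basal keratinocyte markers stood at 0.452% in UV and 0.418% in no UV mice, macrophage and dendritic cell markers at 1.46% and 5.37%, and neutrophil markers at 57.0% and 8.10%. Some listed markers had 0 reads in EGFP+ libraries. S100a9 and Il1r2 had 0 in UV replicate 2, and Il1r2 in no UV replicate 2. Ptprc, Csf1r or both had 0 in every EGFP+ library. A summed level therefore does not show that the cell type was present. The part of other cells in the EGFP+ Pla2g4a level was not tested. In EGFP+ cells both UV libraries lay below both no UV libraries, but the log2 difference of -0.79 ± 0.37 did not pass (adjusted p = 0.505), and in tdTomato+ cells the libraries overlapped (log2 -0.24 ± 0.37, adjusted p = 0.824). The call in no UV mice was lost without no UV EGFP+ replicate 2 (adjusted p = 0.0540).

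The cyclooxygenases were nearly unread in EGFP+ cells. Ptgs1 (chr2:36230426-36252272, plus strand, 11 merged exons), the constitutive enzyme, had 1.68 and 1.08 normalized reads in UV EGFP+ libraries and 1.66 and 0.951 in no UV EGFP+ libraries, against 757.8 and 490.5 in UV tdTomato+ libraries and 715.0 and 949.2 in no UV tdTomato+ libraries. That is 6 reads in all 4 EGFP+ libraries together and 2752 in the tdTomato+ libraries. The log2 difference was -8.26 ± 0.54 (adjusted p = 1.83e-05) over all mice, and the tdTomato+ level was 442 times the EGFP+ level in UV mice (95% interval 151 to 2144, counting error only) and 609 times in no UV mice (208 to 2956). Ptgs2 (chr1:150100031-150108227, plus strand, 11 merged exons), the inducible enzyme, had 0.839 and 0 normalized reads in UV EGFP+ libraries and 0 and 0.951 in no UV EGFP+ libraries, against 887.0 and 1104 in UV tdTomato+ libraries and 590.8 and 532.4 in no UV tdTomato+ libraries. Only 2 Ptgs2 reads came from EGFP+ cells, and the log2 difference was -9.08 ± 0.61 (adjusted p = 1.96e-05) over all mice, a tdTomato+ level 1762 times the EGFP+ level (95% interval 487 to 14554, counting error only). For both genes the 2 populations did not overlap in UV or in no UV mice.

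Under UV, the cyclooxygenases of tdTomato+ cells did not pass the test. Both UV tdTomato+ libraries lay above both no UV tdTomato+ libraries for Ptgs2, with a log2 difference of 0.82 ± 0.86 (adjusted p = 0.721). For Ptgs1 the libraries overlapped, with a log2 difference of -0.43 ± 0.77 (adjusted p = 0.849). Per kilobase of merged exon, Ptgs2 stood at 0.993 and 1.91 times Ptgs1 within UV tdTomato+ libraries and at 0.701 and 0.476 times within no UV tdTomato+ libraries, without overlap; this ratio was not tested. In EGFP+ cells both genes were at 0 to 2 reads a library, too few to show a change under UV in either direction.

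Ptges (chr2:30889471-30929863, minus strand, 6 merged exons), the inducible synthase of prostaglandin E2, followed the cyclooxygenases at a higher level. It had 30.2 and 78.7 normalized reads in UV EGFP+ libraries and 15.8 and 18.1 in no UV EGFP+ libraries, against 2842 and 3702 in UV tdTomato+ libraries and 1314 and 1073 in no UV tdTomato+ libraries. Every EGFP+ library was far below every tdTomato+ library, with log2 -6.04 ± 0.34 (adjusted p = 8.55e-06) over all mice. Without both libraries of mouse 1 the adjusted p was 0.0517 in UV mice and 0.0523 in no UV mice. In each population both UV libraries lay above both no UV libraries. The log2 difference under UV was 1.48 ± 0.48 in EGFP+ cells (adjusted p = 0.362) and 1.45 ± 0.48 in tdTomato+ cells (adjusted p = 0.248), neither past the threshold. On recovered reads DESeq2 gave 1.67 (adjusted p = 0.0349) in EGFP+ cells and 1.45 (adjusted p = 0.0176) in tdTomato+ cells. Without UV EGFP+ replicate 1 limma gave 2.15 (adjusted p = 0.0101) in EGFP+ cells. EGFP+ cells held 1.66% of the tdTomato+ Ptges level in UV mice and 1.42% in no UV mice. By group mean, suprabasal keratinocyte markers stood at 0.943% and 0.643% and fibroblast markers at 1.28% and 0.953%, both below the Ptges share. Hair follicle markers were above it in UV mice (2.10%, and 0.964% in no UV mice), endothelial markers in no UV mice (1.75%, and 0.344% in UV mice), macrophage and dendritic cell markers in no UV mice (5.37%) and neutrophil markers in both (57.0% and 8.10%). As given for Pla2g4a, some of the listed neutrophil and macrophage markers had 0 reads in EGFP+ libraries. The endothelial share in no UV mice rests on 1.66 and 1.90 summed normalized reads in the EGFP+ libraries. In each of them 2 of the 4 endothelial markers had 0 reads, as did Cdh5 and Emcn in no UV tdTomato+ replicate 2. The UV EGFP+ libraries were uneven, with Ptges at 30.2 and 78.7 normalized reads in replicates 1 and 2. Summed fibroblast markers were 10.1 and 245.7 in these libraries and hair follicle markers 28.5 and 254.4. Suprabasal keratinocyte markers were 263.4 and 257.6. Higher in replicate 1 were neutrophil markers (1070 and 630.5) and macrophage and dendritic cell markers (98.2 and 7.54). The part of other cells' RNA in the EGFP+ Ptges level was not tested. Per kilobase within tdTomato+ libraries, Ptges stood at 3.73 and 3.91 times Ptgs2 in UV libraries and at 2.59 and 2.35 times in no UV libraries.

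Ptgds (chr2:25466709-25470046, minus strand, 7 merged exons), which encodes the lipocalin-type prostaglandin D2 synthase, ran the other way. It had 35053 and 40846 normalized reads in UV EGFP+ libraries and 28786 and 31224 in no UV EGFP+ libraries, against 2074 and 2838 in UV tdTomato+ libraries and 343.3 and 111.3 in no UV tdTomato+ libraries. Per kilobase it ranked between 15 and 21 among 23350 genes with a length in the EGFP+ libraries and between 643 and 5907 in the tdTomato+ libraries. It was higher in EGFP+ cells by log2 5.61 ± 0.31 (adjusted p = 7.51e-06) over all mice, by 3.96 ± 0.44 (adjusted p = 0.000713) in UV mice and by 7.25 ± 0.44 (adjusted p = 2.88e-05) in no UV mice. The plot of differences between populations sets Ptgds to the right of 0 in both kinds of mice and the other synthase, Ptges, to the left.

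**Figure D2:**
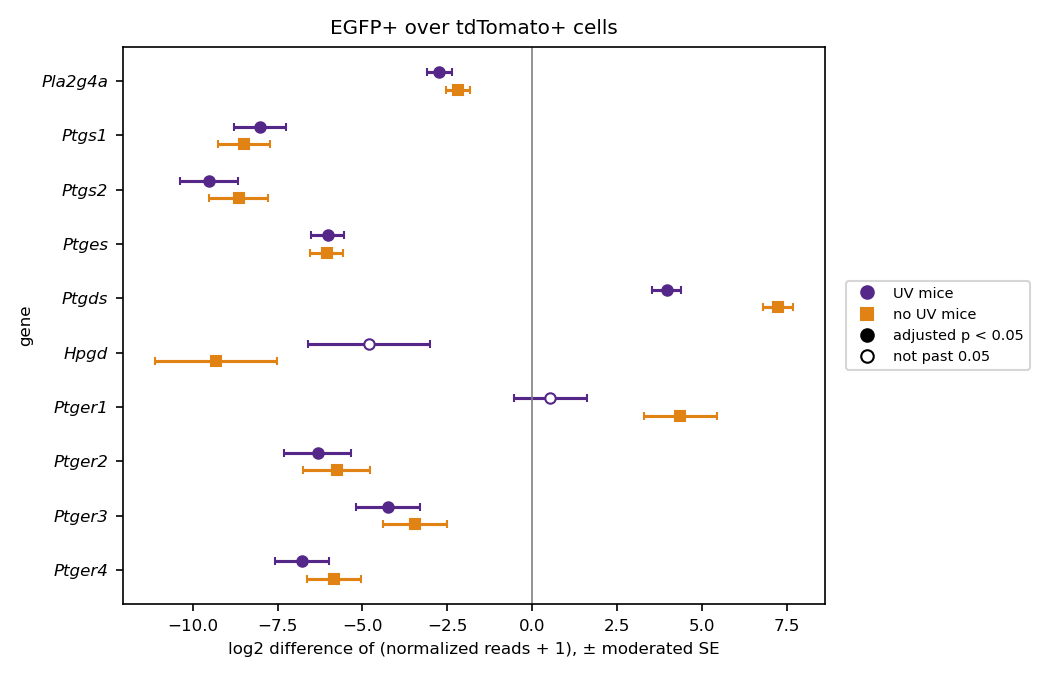
Log2 difference (EGFP+ over tdTomato+) of normalized reads plus 1 for the 10 genes, with moderated SE. Circles are UV mice and squares no UV mice, 2 mice each; filled symbols have an adjusted p under 0.05. Ptgds lies at 3.96 in UV mice and 7.25 in no UV mice, and Hpgd and Ptger1 are the 2 genes with an open symbol, both in UV mice.

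Ptgds was also the 1 member that passed the limma test under UV. It was higher in UV tdTomato+ cells, a comparison in which 0.559% of all genes passed (0.349% higher). Both UV tdTomato+ libraries lay above both no UV tdTomato+ libraries, by log2 3.63 ± 0.44 (adjusted p = 0.0211). In EGFP+ cells both UV libraries also lay above both no UV libraries, with a log2 difference of 0.34 ± 0.44 that did not pass (adjusted p = 0.852). The difference between these UV changes was -3.29 ± 0.62 (adjusted p = 0.206) by limma, with an adjusted p of 0.00992 by edgeR and 0.000137 by DESeq2 on recovered reads, 0.00399 without no UV tdTomato+ replicate 1 and 0.0248 without both libraries of mouse 1. The tdTomato+ call was lost in a fit of the tdTomato+ libraries alone (adjusted p = 0.219) and without UV EGFP+ replicate 2 (0.0865), no UV EGFP+ replicate 1 (0.149), no UV EGFP+ replicate 2 (0.149), UV tdTomato+ replicate 1 (0.206) or UV tdTomato+ replicate 2 (0.210).

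The melanocyte markers moved with Ptgds in the tdTomato+ cells. As a share of the mean of the 4 EGFP+ libraries, Ptgds stood at 6.10% and 8.35% in UV tdTomato+ libraries and at 1.01% and 0.328% in no UV tdTomato+ libraries. For 5 of the 6 markers both UV tdTomato+ libraries lay above both no UV tdTomato+ libraries, and 3 passed the test: Dct (log2 2.82, adjusted p = 0.0211), Mlana (3.49, adjusted p = 0.0101) and Pmel (3.05, adjusted p = 0.0344). Tyr (2.49, adjusted p = 0.0617) and Sox10 (3.32, adjusted p = 0.105) did not pass, and Mitf (0.48, adjusted p = 0.646) overlapped between groups. The summed marker level in tdTomato+ cells was 5.83% of that in EGFP+ cells in UV mice and 0.768% in no UV mice, beside 6.47% and 0.758% for Ptgds. Per 100 normalized reads of the 6 markers, Ptgds had 9.17 and 9.38 in UV EGFP+ libraries, 6.92 and 6.37 in no UV EGFP+ libraries, 12.3 and 9.19 in UV tdTomato+ libraries and 7.43 and 4.77 in no UV tdTomato+ libraries. The part of melanocyte RNA in the tdTomato+ result was not tested.

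**Figure D3:**
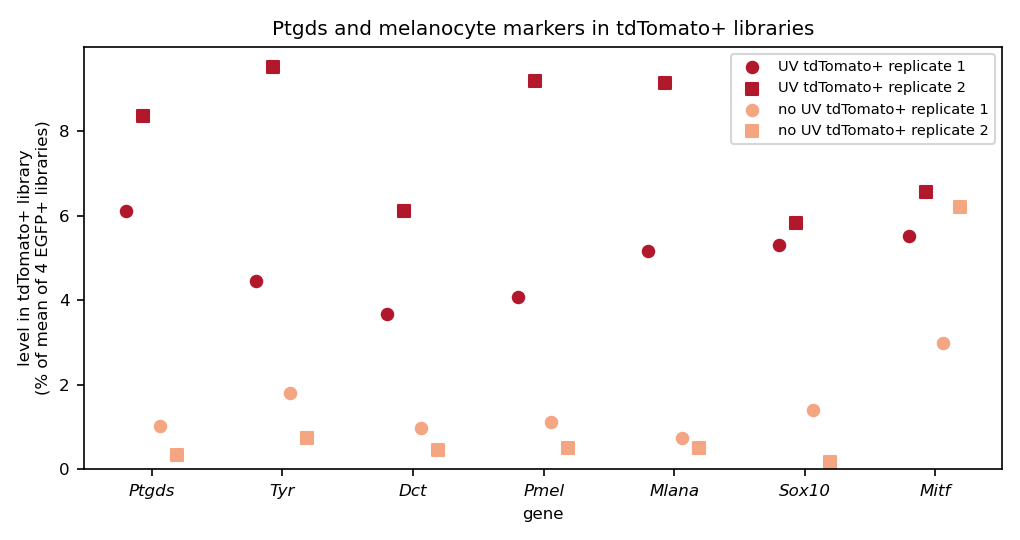
Level of Ptgds and of 6 melanocyte markers in each tdTomato+ library, in percent of the mean of the 4 EGFP+ libraries. Dark symbols are UV and light symbols no UV libraries, with circles for replicate 1 and squares for replicate 2. Ptgds lies at 6.10% and 8.35% in UV libraries and at 1.01% and 0.328% in no UV libraries, and all markers but Mitf show the same order.

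Hpgd (chr8:56294585-56321043, plus strand, 7 merged exons), the enzyme that ends prostaglandin E2 signalling, was read in 1 EGFP+ library only. It had 91.4 and 0 normalized reads in UV EGFP+ libraries and 0 in both no UV EGFP+ libraries, against 169.5 and 419.1 in UV tdTomato+ libraries and 591.8 and 690.8 in no UV tdTomato+ libraries. Every EGFP+ library lay below every tdTomato+ library. In no UV mice the tdTomato+ level was at least 475-fold higher than the EGFP+ level, from 3 reads over the EGFP+ group, with log2 -9.32 ± 1.80 (adjusted p = 0.00844). In UV mice the log2 difference was -4.80 ± 1.80 (adjusted p = 0.107), and -8.06 (adjusted p = 0.000797) without UV EGFP+ replicate 1. The call in no UV mice held without either UV EGFP+ library and was lost without each of the other 6 libraries in turn and without both libraries of mouse 1 (adjusted p from 0.0514 to 0.270). Over all mice the call (log2 -7.06 ± 1.27, adjusted p = 0.00362) was lost without no UV EGFP+ replicate 1 (0.0535), UV tdTomato+ replicate 2 (0.0578), no UV tdTomato+ replicate 1 (0.0667) or both libraries of mouse 1 (0.168), or without no UV tdTomato+ replicate 2 (0.050). Both UV tdTomato+ libraries lay below both no UV tdTomato+ libraries, with a log2 difference of -1.26 ± 1.80 (adjusted p = 0.808). The authors' deposited table, which compares the populations over all 8 libraries, gives Hpgd log2 -3.25 with an adjusted p of 0.137.

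Of the receptors, those that act through cAMP were read almost only in tdTomato+ cells. Ptger4 (EP4; chr15:5206661-5244187, minus strand, 5 merged exons) had 1.68 and 1.08 normalized reads in UV EGFP+ libraries and 15.0 and 7.61 in no UV EGFP+ libraries, against 232.7 and 282.8 in UV tdTomato+ libraries and 428.4 and 1032 in no UV tdTomato+ libraries. It was lower in EGFP+ cells by log2 -6.30 ± 0.56 (adjusted p = 9.55e-05) over all mice. In both populations the UV libraries lay below the no UV libraries, with log2 differences of -2.31 ± 0.80 in EGFP+ cells (adjusted p = 0.389) and -1.37 ± 0.80 in tdTomato+ cells (adjusted p = 0.523), and neither passed. In EGFP+ cells the UV difference rests on 3 reads against 26.

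Ptger2 (EP2; chr14:44988195-45003820, plus strand, 2 merged exons) had 0 reads in all 4 EGFP+ libraries, against 83.4 and 74.2 normalized reads in UV tdTomato+ libraries and 43.0 and 65.7 in no UV tdTomato+ libraries. The tdTomato+ level was at least 97.8-fold higher over all mice, from 3 reads over the EGFP+ group, and the test passed (log2 -6.04 ± 0.70, adjusted p = 0.000368). Both UV tdTomato+ libraries lay above both no UV tdTomato+ libraries by log2 0.56 ± 0.99 (adjusted p = 0.850). Per kilobase within tdTomato+ libraries, Ptger4 stood at 2.18 and 2.98 times Ptger2 in UV libraries and at 7.78 and 12.3 times in no UV libraries, without overlap; the ratio was not tested.

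Ptger3 (EP3; chr3:157566892-157645888, plus strand, 4 merged exons) was low in all libraries, with 0 reads in all 4 EGFP+ libraries, against 12.8 and 25.0 normalized reads in UV tdTomato+ libraries and 16.6 and 5.71 in no UV tdTomato+ libraries. The tdTomato+ level was at least 23.2-fold higher over all mice, from 3 reads over the EGFP+ group, and the test passed (log2 -3.84 ± 0.67, adjusted p = 0.00300). Within UV mice (adjusted p = 0.0167) and within no UV mice (adjusted p = 0.0356) the call was lost on recovered reads by edgeR (0.0987 and 0.130) and by DESeq2 (0.0704 and 0.112), by quantile normalization (0.0631 and 0.106), and with only the libraries compared (0.0526 and 0.0636). In no UV mice it was also lost with a pseudocount of 10 (0.0743). With mouse as a block it was lost in no UV mice (0.0675). It was also lost in UV mice without UV EGFP+ replicate 2 (0.0609), UV tdTomato+ replicate 1 (0.0512) or UV tdTomato+ replicate 2 (0.0609), and in no UV mice without no UV EGFP+ replicate 1 (0.0973), no UV EGFP+ replicate 2 (0.125) or both libraries of mouse 1 (0.0939). The UV and no UV tdTomato+ libraries overlapped.

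Ptger1 (EP1; chr8:83666678-83672753, plus strand, 3 merged exons) was the receptor gene with more reads in EGFP+ cells, at low levels. It had 29.4 and 15.1 normalized reads in UV EGFP+ libraries and 37.4 and 25.7 in no UV EGFP+ libraries, against 11.0 and 18.5 in UV tdTomato+ libraries and 0 and 1.43 in no UV tdTomato+ libraries. In no UV mice the EGFP+ libraries lay above the tdTomato+ libraries, with log2 4.36 ± 1.08 (adjusted p = 0.0237). In UV mice they overlapped, with 0.53 ± 1.08 (adjusted p = 0.815). Over all mice the log2 difference was 2.45 ± 0.76 (adjusted p = 0.0422). The call was lost with mouse as a block in no UV mice (adjusted p = 0.0553) and over all mice (0.0835), and by edgeR on recovered reads (0.0726 and 0.0823). It was also lost in no UV mice with only the libraries compared (0.0555), and over all mice with a pseudocount of 0.1 (0.0728) and with no filter (0.0567). It was lost in 4 of 9 fits that left out a library or mouse 1 in no UV mice (up to 0.164) and in 7 of 9 over all mice (up to 0.145). The authors' deposited table gives Ptger1 log2 1.66 with an adjusted p of 0.191. Under UV, both UV tdTomato+ libraries lay above both no UV tdTomato+ libraries, by log2 3.30 ± 1.08 (adjusted p = 0.238).

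The kit does not keep the strand, so reads from a member and from a transcript that overlaps its exons on the opposite strand cannot be told apart, and the Ptger1 values are uncertain for this reason. Ptger4 shared 1015 merged exon bases (15.3%) with a pseudogene on the opposite strand.

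Read per kilobase of merged exon, the levels of the members had a different order in each population. In UV EGFP+ cells Ptgds stood at 23013 ± 2484 normalized reads per kilobase (SD, n = 2), followed by Hpgd at 27.2 ± 38.4, Pla2g4a at 16.1 ± 1.79, Ptges at 13.8 ± 8.72 and Ptger1 at 4.07 ± 1.85, and the other 5 genes were under 1. The 3 genes after Ptgds did not differ beyond their spread. In no UV EGFP+ cells Ptgds stood at 18196 ± 1046, followed by Pla2g4a at 28.1 ± 5.20, Ptger1 at 5.78 ± 1.52 and Ptges at 4.31 ± 0.41. In UV tdTomato+ cells Ptgds led at 1489 ± 328, then Ptges at 832.4 ± 154.6, Ptgs2 at 217.4 ± 33.6, Hpgd at 174.9 ± 105, Ptgs1 at 160.7 ± 48.7 and Pla2g4a at 107.8 ± 8.88. Hpgd did not differ beyond its own spread from Ptgs2, Ptgs1 or Pla2g4a. In no UV tdTomato+ cells Hpgd led at 381.0 ± 41.6, then Ptges at 303.6 ± 43.2 and Ptgs1 at 214.2 ± 42.6. Ptgds at 137.9 ± 99.5, Pla2g4a at 131.5 ± 47.6, Ptgs2 at 122.6 ± 9.01 and Ptger4 at 109.8 ± 64.2 followed. The ranges of mean ± SD of these last 4 overlapped. The range of Ptgs1 also overlapped those of Ptgds, Pla2g4a and Ptger4, and the range of Hpgd overlapped that of Ptges.

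Under UV, 0 of 10 genes passed in EGFP+ cells, where 0.0166% of all genes passed by limma. In EGFP+ libraries summed neutrophil markers were 1070 and 630.5 in UV and 425.8 and 400.3 in no UV. Of these markers, S100a9 and Il1r2 had 0 reads in UV replicate 2. Macrophage and dendritic cell markers were 98.2 and 7.54 in UV and 419.2 and 214.9 in no UV, with Ptprc at 0 in both UV libraries. The part of such cells was not tested. Before adjustment 2 of the 10 had p under 0.05 (Ptges and Ptger4), as did 1875 of all 18070 genes, and DESeq2 on recovered reads called 1 (Ptges) and edgeR 0. Libraries did not overlap for 4 genes, with UV above for Ptges and Ptgds and below for Ptger4 and Pla2g4a; among all genes tested 12.7% had UV above and 20.7% had UV below. In tdTomato+ cells 1 of 10 passed, Ptgds, and libraries did not overlap for 7 genes, with UV above for Ptgds, Ptges, Ptgs2, Ptger1 and Ptger2 and below for Ptger4 and Hpgd, against 21.6% and 24.5% of all genes. The median log2 difference of the 10 genes in tdTomato+ cells was 0.68, and -0.09 over all genes tested. The UV changes of the 2 populations differed for 0 of 10 genes by limma, against 0.00553% of all genes, with 2 of 10 (Ptgds and Ptger1) and 1814 of all 18070 genes under an unadjusted p of 0.05, and for 1 of 10 (Ptgds) by edgeR and by DESeq2. Several summed marker lists also did not overlap between UV and no UV tdTomato+ libraries. Lower in UV were T cell markers (101.7 and 1.85 normalized reads in UV, 548.7 and 676.5 in no UV). So were neutrophil markers (1795 and 1188 in UV, 7870 and 2331 in no UV) and fibroblast markers (8276 and 11772 in UV, 17429 and 14715 in no UV). Suprabasal keratinocyte markers were lower too (35366 and 19862 in UV, 49651 and 64901 in no UV). Higher in UV were melanocyte markers (16818 and 30883 in UV, 4620 and 2334 in no UV). Mast cell markers were also higher (38.5 and 31.5 in UV, 0 and 9.99 in no UV), with Cma1 the only one read in UV. The part of these cells in the differences was not tested.

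**Figure D4:**
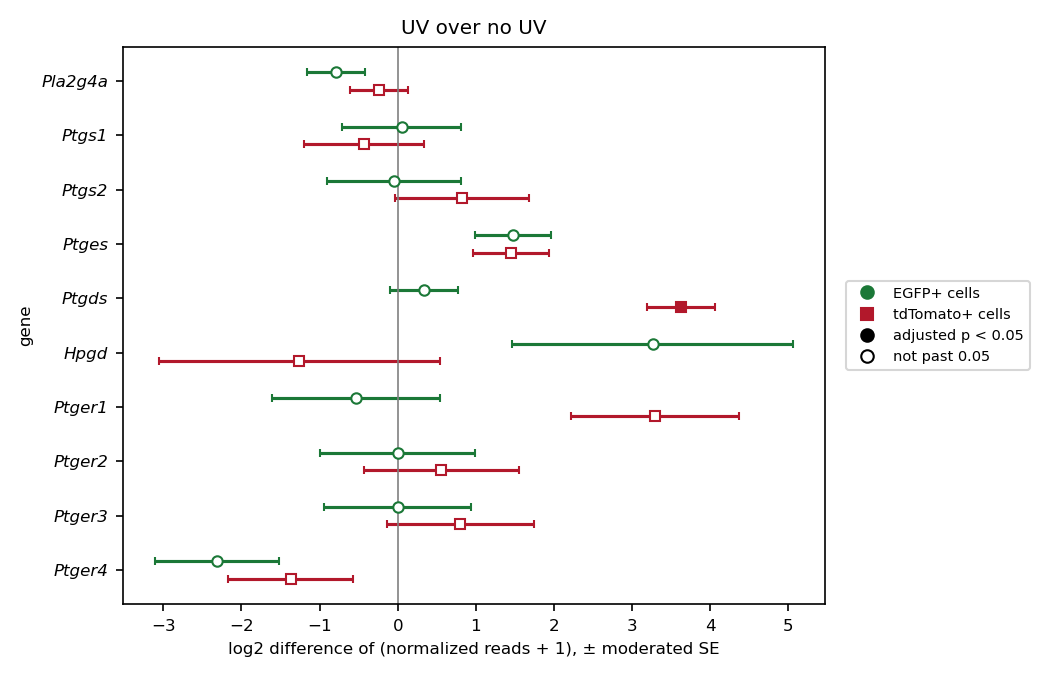
Log2 difference (UV over no UV) of normalized reads plus 1 for the 10 genes, with moderated SE. Circles are EGFP+ cells and squares tdTomato+ cells, 2 mice per arm; filled symbols have an adjusted p under 0.05. Ptgds in tdTomato+ cells, at 3.63, is the 1 filled symbol; Ptges lies at 1.48 in EGFP+ and 1.45 in tdTomato+ cells.

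Of 20 listed genes for other prostanoid synthases, reductases, transporters and receptors, 19 were tested. Over all mice 1 was higher and 7 were lower in EGFP+ cells (median log2 -0.83). Of all genes tested, 9.66% were higher and 19.2% lower (median log2 -0.33). Ptgdr, a receptor for prostaglandin D2, had 0 reads in all 4 EGFP+ libraries and averaged 69.8 normalized reads in UV and 153.4 in no UV tdTomato+ libraries, a tdTomato+ level at least 150-fold higher (adjusted p = 0.000404). Slco2a1, the prostaglandin uptake transporter, averaged 5.69 normalized reads in EGFP+ and 229.4 in tdTomato+ libraries (log2 -5.41 ± 0.81, adjusted p = 0.00147). Akr1c18, an aldo-keto reductase that acts on prostaglandins and progesterone, had 0 reads in EGFP+ libraries and averaged 134.1 normalized reads in tdTomato+ libraries (adjusted p = 0.00163). Both of these calls were lost without both libraries of mouse 1 (adjusted p = 0.0989 for Slco2a1 and 0.0826 for Akr1c18). Cbr1, a carbonyl reductase that acts on prostaglandin E2, was lower in EGFP+ cells by log2 -1.13 ± 0.15 (adjusted p = 0.000824), and the 1 gene higher there was Zadh2, a prostaglandin reductase (log2 1.68 ± 0.30, adjusted p = 0.00341).

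Of 20 other phospholipases A2, 16 were tested, with 3 higher and 5 lower in EGFP+ cells over all mice (median log2 -1.21). Of all genes tested, 9.66% were higher and 19.2% lower (median log2 -0.33). Pla2g7, the platelet-activating factor acetylhydrolase, averaged 4.85 normalized reads in EGFP+ and 1183 in tdTomato+ libraries (log2 -7.96 ± 0.59, adjusted p = 3.33e-05). Pla2g2e, a secreted phospholipase A2, was higher in EGFP+ cells, with averages of 236.6 and 10.2 normalized reads (log2 4.40 ± 0.61, adjusted p = 0.000931). Of 15 lipoxygenase and leukotriene genes, 1 was higher and 7 were lower (median log2 -2.05), against the same shares of all genes. The higher one was Lta4h, whose product makes leukotriene B4, with averages of 7392 normalized reads in EGFP+ and 1459 in tdTomato+ libraries (log2 2.39 ± 0.17, adjusted p = 2.37e-05). Alox12e, an epidermal lipoxygenase, was lower by log2 -7.09 ± 0.54 (adjusted p = 4.22e-05). Ltb4r1, a leukotriene B4 receptor, had 2 reads in the 4 EGFP+ libraries together, and its tdTomato+ level was 404 times the EGFP+ level (95% interval 112 to 3346, counting error only; adjusted p = 0.000226).

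Of 24 genes in the arm of cAMP signalling shared by EP2 and EP4, 8 were higher, 3 were lower and 13 passed neither way in EGFP+ cells over all mice, where 9.66% of all genes were higher and 19.2% lower. The median log2 difference was 0.36, against -0.33 over all genes tested. Gnas, the stimulatory G protein alpha subunit, averaged 30371 normalized reads in EGFP+ and 12150 in tdTomato+ libraries (log2 1.33 ± 0.11, adjusted p = 7.34e-05). Crtc3, a coactivator of CREB, was higher by 2.72 ± 0.27 (adjusted p = 0.000160) and Rapgef4, a cAMP-activated exchange factor, by 2.99 ± 0.27 (adjusted p = 9.56e-05). Pde4b, a cAMP phosphodiesterase, was lower by -2.20 ± 0.17 (adjusted p = 4.78e-05). In the UV comparisons 0 genes of these 4 lists passed by limma. Few of all genes did: 0.0166% in EGFP+ cells, 0.559% in tdTomato+ cells and 0.00553% for the difference of UV changes. These lists were not tested as sets.

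**Figure D5:**
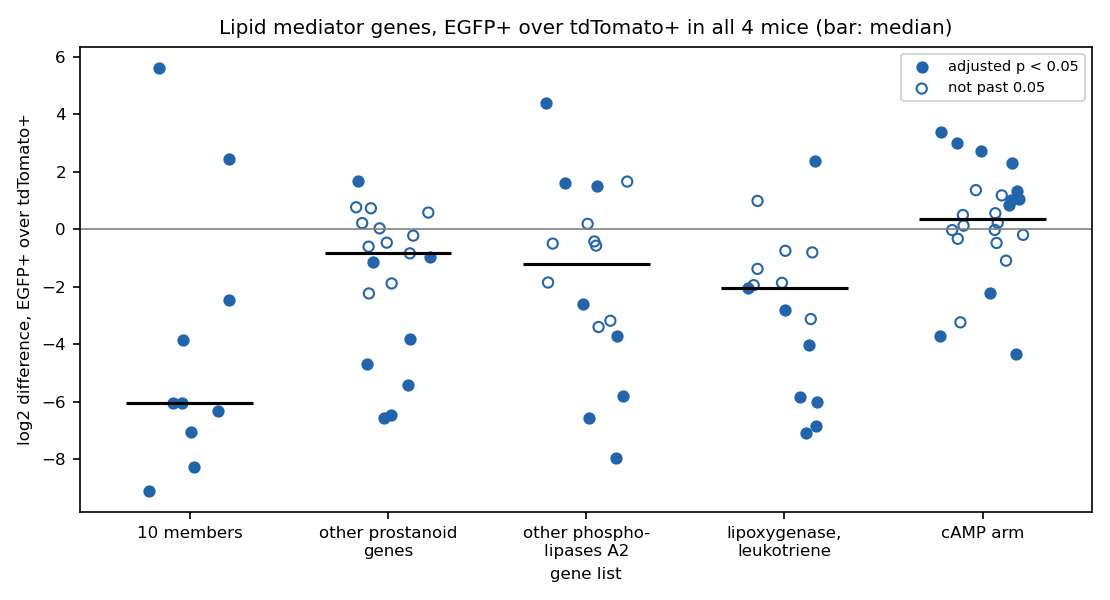
Log2 difference (EGFP+ over tdTomato+, all 4 mice) of each tested gene in 5 lists: the 10 members, other prostanoid genes, other phospholipases A2, lipoxygenase and leukotriene genes, and the cAMP arm of EP2 and EP4. Points are genes, filled where the adjusted p is under 0.05, and bars are medians, at -6.04 for the members and 0.36 for the cAMP arm.

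The genes most alike in pattern over the 8 libraries follow the split between populations. On log2 of normalized reads plus 1, the highest Pearson r with Ptgds, among 11876 genes that averaged 50 or more in some group, was 0.998 for Gm2115, 0.998 for Kit and 0.996 for Tyrp1. For Ptgs2 it was 0.997 for Plau, Tmem40 and Krt17, for Ptgs1 0.999 for Klc3, Irx4 and Calml3, and for Ptges 0.994 for Cxcl14. For Ptger4 the gene most alike was Zfp36 (0.996). The libraries fall into 2 populations, which alone gives high values of r: 288 genes had r of at least 0.95 with Ptgds and 753 with Ptgs1. Between members, r was 0.989 for Ptgs1 and Ptgs2 and -0.919 for Ptgs1 and Ptgds.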

How the data were processed

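RNA was measured by poly(A) sequencing of an unstranded library in 8 sorted samples. The authors deposited 1 table of normalized signal: the submitters' processing notes list mm10, TopHat2 2.0.12, DESeq2 1.14.1, Cufflinks 2.2.1 and FastQC, while neither the read counter nor the annotation is named there. Each value is a whole read count divided by 1 size factor per library: 195368 of 195368 values (100%) came within 0.01 of a whole number of reads. Per the file headers the deposited table also holds log2 fold changes, a Wald statistic (a score, not used) and p-values of the authors.

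The main test was limma 3.58.1 (R 4.3.3, empirical Bayes with trend) on log2(value + 1), with 8 libraries in 1 fit, 4 groups of 2, and Benjamini-Hochberg adjustment over the 18070 genes that averaged 1 or more in some group; 3897 genes were 0 in every library. Adjusted p-values in the text are from this test unless another tool is named, with a threshold of 0.05, and ± after a log2 difference is its moderated SE. Fold changes on log2(value + 1) understate changes of low genes. Since the unit is a normalized signal, edgeR 4.0.16 and DESeq2 1.42.0 were run on recovered reads as alternatives, and over all mice they called 5055 and 5689 genes. Exact intervals (95%) and floors (3 reads over the group) cover counting error only. An exact permutation test of 2 against 2 cannot go below p = 0.333 and was not used. Each mouse gave both populations; deviations of its libraries correlated at r = 0.0562 in UV and 0.0873 in no UV mice over 18070 genes. Exon lengths and positions are from GENCODE (GRCm38), promoters from RefSeq (GRCm38.p6), and 9 of 10 members had a promoter entry. Scripts were tested on simulated data.

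The members and lists were chosen with earlier results of these data known. All members are named; from each other list up to 4 called genes with the smallest p per comparison were eligible, plus Zadh2, named as the only higher gene of its list after its values were seen. The 3 genes of highest Pearson r with each member were eligible as most alike. Alternatives were other scalings, pseudocounts of 0.1 and 10, other filters, a fit of only the libraries compared, a mouse or replicate block, other tools, and leaving out each library or mouse 1. Some results are not reported here.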

Additional observations from a re-analysis of the deposited data

Results flagged for a closer look

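Hpgd stood apart in 1 EGFP+ library: UV replicate 1 had 91.4 normalized reads (109 reads), and UV replicate 2 and both no UV replicates had 0. Of 18 sets of 4 libraries examined (the members in each population), this was the 1 in which the gap of the farthest library over the whole range passed the 95% critical value of Dixon, and chance alone gives about 1 in 20. With every other EGFP+ library at 0, this ratio is 1.0 whatever the Hpgd level, so passing adds nothing to the read counts. In the same library the summed basal keratinocyte markers were 755.0 normalized reads, against 870.8 in UV replicate 2 and 664.5 and 831.9 in the no UV EGFP+ libraries. Its summed neutrophil markers, at 1070, were the highest of the EGFP+ libraries, against 630.5 in UV replicate 2 and 425.8 and 400.3 in the no UV libraries. Its macrophage and dendritic cell markers were 98.2, against 7.54 in UV replicate 2 and 419.2 and 214.9 in the no UV libraries. Of these markers, Cd207 and Ptprc had 0 reads in UV replicate 1, and S100a9 and Il1r2 had 0 in UV replicate 2. The part of other cells in the Hpgd reads was not tested. Without this library the difference of Hpgd between EGFP+ and tdTomato+ cells of UV mice was log2 -8.06 (adjusted p = 0.000797, limma), against -4.80 (adjusted p = 0.107) with it.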

How the results depend on the processing

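Of the members' results over the alternatives, 1035 kept their direction and their side of the threshold, 55 lost a call, 8 gained one and 20 turned direction, none of the 20 a call. Over all mice 9 or 10 members were called with mouse as a replicate block, by edgeR and by DESeq2; the block changed no call of a member beyond Ptger1 and Ptger3, given beside them. Replicate numbers across the UV arms are different mice, whose deviations correlated at r = 0.0549 in EGFP+ and 0.0759 in tdTomato+ cells, and with that replicate block 0 members were called in EGFP+ and 1 in tdTomato+ cells. Under UV in EGFP+ cells Ptgs2 turned to 0.78 by quantile normalization, 0.031 by edgeR and 0.088 by DESeq2, Ptger1 to 0.44 by quantile normalization, and leaving out libraries gave -0.18 to 0.27 for Ptgs1 and -0.52 to 0.44 for Ptgs2. In tdTomato+ cells it gave -0.62 to 0.14 for Pla2g4a. The difference of UV changes was -0.051 for Ptges after rescaling and -0.29 with pseudocount 10 (-0.65 to 0.71 leaving out libraries), and for Ptger4 1.06 by quantile normalization and 0.46 with pseudocount 10 (-1.58 to 0.14). Members called ranged over left-out libraries 6 to 10 in no UV mice, 0 to 1 under UV in EGFP+ cells, 0 to 1 in tdTomato+ cells and 0 to 1 for the difference; DESeq2 called 1, 2 and 1 in the last 3, edgeR 1 for the difference, and a fit of the tdTomato+ libraries alone 0. All genes called in UV mice were 3240, 1074 with only the libraries compared and 993 to 4952 leaving out libraries, in no UV mice 3468 (1398 to 4494) and over all mice 5217 (3463 to 6594). Under UV in EGFP+ cells 3 genes were called, 16 by quantile normalization, 1 and 0 with pseudocounts of 0.1 and 10, 0 with only the libraries compared, 120 by edgeR, 355 by DESeq2 and 0 to 1604 leaving out libraries. In tdTomato+ cells 101 were called, and in the same order 218, 29, 235, 0, 240, 617 and 0 to 2006. For the difference 1 was called, 14 by quantile normalization, 2 after rescaling, 0 and 0 with pseudocounts of 0.1 and 10, 0 with no filter, 75 by edgeR, 286 by DESeq2 and 0 to 2064 leaving out libraries. Higher and lower calls over all mice were 1746 and 3471, 2857 and 2672 by quantile normalization and 2655 and 2895 after rescaling. The cause of these shifts was not tested. Genes with 0 to 3 reads in a group are limited by depth.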
